A study of Homo sapiens with 5 samples.

Results

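The genes of 9 laminin chains were followed through RNA sequencing of an astroglial cell line with and without a mutation in IDH1. They were the 5 α chain genes LAMA1, LAMA2, LAMA3, LAMA4 and LAMA5, the β chain genes LAMB1, LAMB2 and LAMB3, and the γ chain gene LAMC1, taken by symbol from the 57905 genes with counts. LAMA4 was listed under 2 Ensembl identifiers, of which 1 had counts, and each of the other chains under 1.

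The mutant samples were derivatives of SVG-10B1, an established human astroglial line, that carried the IDH1 genotype R132H/WT, with 1 library of clone 2 and 2 libraries of clone 6. The others were 2 wild-type libraries of the same line, which the labels number clone 1. All were grown in medium with fetal calf serum, and total RNA was sequenced. The labels do not say how the mutation was made or whether the wild-type cells went through the same cloning, so the genotype and the derivation of a clone cannot be told apart. Nothing says that replicates were separate cultures, so p-values measure only the spread between these libraries.

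Laminins are trimers of an α, a β and a γ chain that assemble in the cell, are secreted and polymerise into the sheet of the basement membrane. The α chain carries the globular domains that bind integrins and dystroglycan, and it largely sets where a trimer is used. In brain, laminins line the vessels and the outer surface, where astrocyte endfeet attach to them. LAMC1 encodes the γ chain of most trimers. The product of IDH1 is an isocitrate dehydrogenase of the cytosol, which in its R132H form produces 2-hydroxyglutarate, and this metabolite blocks dioxygenases.

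The libraries held 13572114 to 16559077 assigned reads in mutant cells and 17603317 to 21881726 in wild-type cells, and ribosomal RNA took 0.417 to 9.79% of them in mutant and 2.24 to 7.23% in wild-type libraries. IDH1 transcript stood at 105 to 111 CPM (counts scaled to a common library size) in mutant libraries and 118 to 119 CPM in wild-type libraries, which says nothing of the mutated base. The clone 2 library and clone 6 replicate 1 lay closer together (SD of the log2 difference across genes 0.166) than the replicates of clone 6 (0.458) or of wild type (0.224). For the counts of that pair the median chi-square was 1.47 times that expected of reads drawn from 1 pool. It was 3.35 times for the wild-type replicates and 9.82 times for those of clone 6. A value above 1 does not show that libraries came from separate cultures. Clone 6 replicate 2 stood apart from the other mutant libraries. Values without it are given where they change a call of a chain between all mutant and wild-type libraries. For the clones fitted apart, only the counts of chains called without it are given. Whether the clone labels of these libraries are right was not tested, and every value given by clone follows the labels. Of the 8 astrocyte markers, AQP4 had 0 reads in every library and GFAP 5 to 9 reads, and SLC1A2, ALDH1L1, S100B and ALDOC had at most 10 reads in mutant and 14 in wild-type libraries. The other two were detected: GJA1 averaged 389 CPM in mutant and 162 CPM in wild-type cells, and SLC1A3 had 107 to 158 reads in mutant and 140 to 175 reads in wild-type libraries.

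The stretches of genome around the start sites of LAMA4 and LAMA2, the chains that fell furthest, of LAMA5, which also fell, and of LAMB1, which rose, are printed first. Each runs from 250 bases before to 50 bases after the RefSeq start in build GRCh38.p14 and is read 5′ to 3′ on the strand of the gene, with CpG dinucleotides in capitals. LAMA4 is on the minus strand at chr6:112254518-112254817, LAMA2 on the plus strand at chr6:128882888-128883187, LAMA5 on the minus strand at chr20:62367263-62367562 and LAMB1 on the minus strand at chr7:108003112-108003411.
LAMA4: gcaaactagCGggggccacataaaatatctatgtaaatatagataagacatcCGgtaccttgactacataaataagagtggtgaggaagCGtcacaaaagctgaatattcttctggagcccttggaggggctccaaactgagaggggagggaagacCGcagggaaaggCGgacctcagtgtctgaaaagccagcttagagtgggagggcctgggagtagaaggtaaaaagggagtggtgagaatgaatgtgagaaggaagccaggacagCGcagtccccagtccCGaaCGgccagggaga
LAMA2: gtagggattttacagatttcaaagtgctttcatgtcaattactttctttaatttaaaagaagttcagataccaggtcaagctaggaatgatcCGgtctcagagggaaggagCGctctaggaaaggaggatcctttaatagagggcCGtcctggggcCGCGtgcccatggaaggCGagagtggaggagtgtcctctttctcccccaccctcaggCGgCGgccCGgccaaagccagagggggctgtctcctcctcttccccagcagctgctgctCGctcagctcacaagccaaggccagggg
LAMA5: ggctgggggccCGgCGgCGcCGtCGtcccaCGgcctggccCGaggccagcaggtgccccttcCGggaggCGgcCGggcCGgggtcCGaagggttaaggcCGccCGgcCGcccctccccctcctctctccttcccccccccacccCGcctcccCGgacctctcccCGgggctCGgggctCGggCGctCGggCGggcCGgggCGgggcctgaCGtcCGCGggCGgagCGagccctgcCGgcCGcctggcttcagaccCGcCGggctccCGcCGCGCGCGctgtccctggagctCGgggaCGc
LAMB1: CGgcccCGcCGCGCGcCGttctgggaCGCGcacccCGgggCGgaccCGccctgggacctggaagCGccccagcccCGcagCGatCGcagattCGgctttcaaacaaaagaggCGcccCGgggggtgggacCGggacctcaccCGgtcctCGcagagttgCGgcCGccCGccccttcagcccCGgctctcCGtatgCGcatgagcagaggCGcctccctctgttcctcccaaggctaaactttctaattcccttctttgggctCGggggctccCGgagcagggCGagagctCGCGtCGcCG
LAMA4 held 8 CpG and LAMA2 10, against 41 in LAMA5 and 35 in LAMB1, where the median of 35116 promoters of this length was 14. The chains that fell included both CpG-poor and CpG-rich starts. Of 4 motifs searched on both strands, the TEAD motif GGAATG (in 14.0% of all promoters) occurred once in LAMA2, the Sp1 motif GGGCGG (45.0%) occurred 5 times in LAMA5 and 4 times in LAMB1, and the AP-1 motif TGANTCA (7.71%) and the NF-kB motif (5.91%) were in none of these windows. LAMA4 held no match to any of the 4.

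LAMB3 had 3 start sites in the RefSeq table, and its first window, on the minus strand at chr1:209652376-209652675, is shown because it held 3 matches to the NF-kB motif, at bases 192, 240 and 241, of which the last 2 overlap. Capitals mark these matches and the Sp1 match at base 163.
LAMB3: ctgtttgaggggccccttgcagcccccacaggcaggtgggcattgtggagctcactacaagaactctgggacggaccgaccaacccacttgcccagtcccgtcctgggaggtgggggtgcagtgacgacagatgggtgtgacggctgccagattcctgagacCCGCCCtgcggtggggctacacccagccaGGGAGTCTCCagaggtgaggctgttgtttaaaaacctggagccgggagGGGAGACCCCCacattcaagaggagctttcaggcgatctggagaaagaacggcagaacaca
The second LAMB3 window overlaps the first and holds the same NF-kB matches, and the third has an AP-1 match and none to NF-kB. LAMA3 had 2 AP-1 matches. A match is a run of letters and not a bound site. Promoters of all members except LAMA1 were found in the table.

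The comparison of mutant with wild-type cells asks which chains differ between the genotypes. The laminin genes parted by chain: LAMA4 and LAMA2 were far lower in mutant cells, LAMA5, LAMB3 and LAMC1 were lower, and LAMA1 and LAMB1 were higher. Of the 9 chains, 7 were called, 2 higher and 5 lower (edgeR's quasi-likelihood test, Benjamini-Hochberg adjusted p below 0.05 over 15500 genes). Over all genes tested, 18.4% were called, 8.27% higher and 10.2% lower. The 7 called chains became 3 and 4 when the first and the second wild-type library were left out, and 4 without clone 2, while the count over all genes went with it (500, 697 and 1481, against 2857 with every library). The values of mutant and wild-type libraries did not overlap for 9 of the 9 chains, 2 higher and 7 lower, against 52.7% of all genes, 26.9% higher and 25.8% lower. The median log2 fold change of the chains was -0.59, beside 0.02 for all genes. The chains were chosen with earlier results of these data known, so these shares are a description only.

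**Figure D1:**
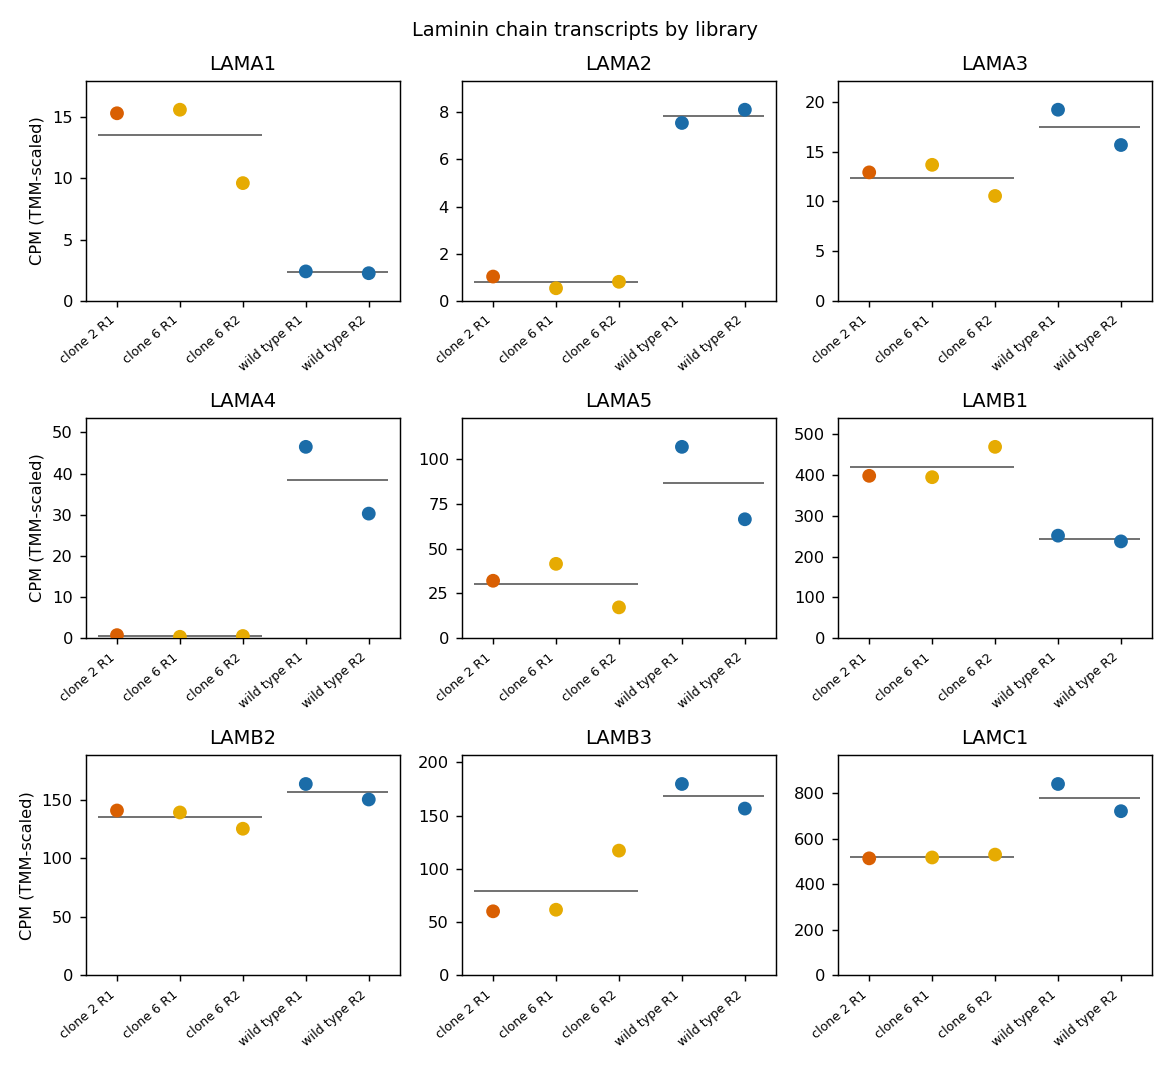
Normalised level (CPM on TMM-scaled library sizes, linear axes from 0) of each laminin chain in clone 2 (orange), clone 6 (yellow) and wild type (blue), 1 point per library, with grey lines at the mean of mutant and of wild-type libraries. The mutant points of LAMA1 and LAMB1 lie above both wild-type points and those of the other 7 chains lie below them.

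LAMA4 encodes an α chain of vessel walls and mesenchymal tissue that lacks most of the short arm of other α chains. It had 11 reads in clone 2 and 4 and 8 reads in clone 6 replicates 1 and 2, against 1005 and 549 reads in wild-type replicates 1 and 2. In CPM these were 0.710, 0.307 and 0.499 in the mutant libraries, against 46.5 and 30.3 in the wild-type libraries. Every mutant library was near the limit of detection, and 4 reads carry an exact 95% Poisson interval of 1.09 to 10.2 reads, which covers counting error only. The log2 fold change was -6.20 (SE 0.31, adjusted p = 0.000347), and it lay between -6.52 and -5.86 when each library was left out in turn.

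LAMA2, the α chain of muscle and peripheral nerve that is lost in a congenital muscular dystrophy, had 16 reads in clone 2 and 7 and 13 reads in clone 6 replicates 1 and 2, against 163 and 147 reads in wild type. The means were 0.793 ± 0.248 CPM in mutant cells (SD, n = 3) and 7.82 ± 0.397 CPM in wild-type cells (SD, n = 2). All 3 mutant libraries were low and did not overlap the wild-type pair. LAMA2 fell by 3.27 on the log2 scale (SE 0.26, adjusted p = 0.000961). In bulk RNA, fewer cells that make a transcript and less of it per cell cannot be told apart.

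LAMA1, an α chain of embryonic basement membranes that is also found at the surface of the brain, moved the other way. It stood at 15.3 CPM in clone 2, and in clone 6 at 15.6 CPM (replicate 1) and 9.60 CPM (replicate 2), against 2.41 and 2.26 CPM in wild-type replicates 1 and 2. Clone 6 replicate 2 was the lowest mutant library and still lay above both wild-type libraries. The log2 fold change was 2.52 (SE 0.27, adjusted p = 0.00261), the largest rise among the chains, and its adjusted p stayed below 0.05 with any 1 library left out.

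LAMA5, an α chain found in most adult epithelia and vessels, had 32.0 CPM in clone 2, and in clone 6 it had 41.5 CPM (replicate 1) and 17.1 CPM (replicate 2), against 107 and 66.4 CPM in wild-type replicates 1 and 2. The libraries were spread widely within both genotypes. It fell by 1.52 on the log2 scale (SE 0.36, adjusted p = 0.031), and its call was lost on leaving out either wild-type library (adjusted p = 0.236 without the first and 0.0843 without the second) or clone 2 (0.0742). LAMA3, the α chain of the epidermal anchoring laminin, averaged 12.4 ± 1.63 CPM in mutant and 17.4 ± 2.51 CPM in wild-type cells (SD, n = 3 and 2), a log2 difference of -0.50 (SE 0.17) that did not pass the test (adjusted p = 0.0863). Without clone 6 replicate 2 it passed, at -0.41 (adjusted p = 0.0337).

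Among β chains, LAMB1, which pairs with most α chains in development, was higher in mutant cells. It had 398 CPM in clone 2, and in clone 6 it had 395 CPM (replicate 1) and 469 CPM (replicate 2), against 251 and 237 CPM in wild-type replicates 1 and 2. The log2 fold change was 0.78 (SE 0.11, adjusted p = 0.00563), and with the first or the second wild-type library left out the adjusted p was 0.0667 or 0.0734. LAMB2, the β chain of the neuromuscular junction and the kidney filter, had 125 to 141 CPM in mutant and 150.3 to 164 CPM in wild-type libraries (log2 fold change -0.22, SE 0.094, adjusted p = 0.162), which did not pass.

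LAMB3, the β partner of LAMA3 in epithelia, had 60.0 CPM in clone 2, and in clone 6 it had 61.5 CPM (replicate 1) and 117 CPM (replicate 2), against 179.6 and 157 CPM in wild-type replicates 1 and 2. Clone 6 replicate 2 lay between the other mutant libraries and wild type. LAMB3 fell by 1.08 on the log2 scale (SE 0.29, adjusted p = 0.0481). This adjusted p was the highest of the 7 called, and the call was lost on leaving out either wild-type library (adjusted p = 0.261 without the first and 0.172 without the second), clone 2 (0.107) or clone 6 replicate 1 (0.119), while without clone 6 replicate 2 the fall was 1.48.

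LAMC1 was the most abundant chain. It had 514 CPM in clone 2, and in clone 6 it had 517 CPM (replicate 1) and 530 CPM (replicate 2), against 841 and 721 CPM in wild-type replicates 1 and 2. The mutant libraries were tightly grouped, at 520.4 ± 8.61 CPM (SD, n = 3), below 781 ± 84.6 CPM in wild type (SD, n = 2). It fell by 0.59 on the log2 scale (SE 0.095, adjusted p = 0.00954), with adjusted p-values of 0.0995 without wild-type replicate 1 and 0.0521 without clone 2.

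Against the same wild-type libraries, the clones were also fitted apart. In clone 2, 3 chains were called, where 3.81% of 16471 genes were: 1 higher (1.65% of genes) and 2 lower (2.16%). The log2 fold change was 2.71 for LAMA1, -2.91 for LAMA2 and -5.74 for LAMA4 (adjusted p = 0.0129, 0.0181 and 0.00549). In clone 6, 4 chains were called, where 8.98% of genes were: 2 higher (3.87%) and 2 lower (5.11%). The log2 fold change was 2.42 for LAMA1, 0.83 for LAMB1, -3.50 for LAMA2 and -6.52 for LAMA4 (adjusted p = 0.00691, 0.0198, 0.0029 and 0.00112). Clone 2 had 1 library, assumed to vary like the other groups, and both comparisons share the wild-type libraries. With a clone 6 library left out, the spread came from the wild-type pair alone. With a wild-type library left out, it came from the clone 6 pair alone. For clone 6 the counts were 8 without clone 6 replicate 1, 7 without clone 6 replicate 2 and 3 without either wild-type replicate, where over all genes 5119, 3455, 329 and 401 were called, against 1479 with every library. For clone 2 they were 7 without clone 6 replicate 1 or 2 and 2 without either wild-type replicate, since LAMA2 lost its call in clone 2 without wild-type replicate 1 (adjusted p = 0.0733) or 2 (0.0813). Over all genes the counts in these clone 2 fits were 3144, 3510, 175 and 208, against 628, so the chain counts moved with the number of genes called.

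**Figure D2:**
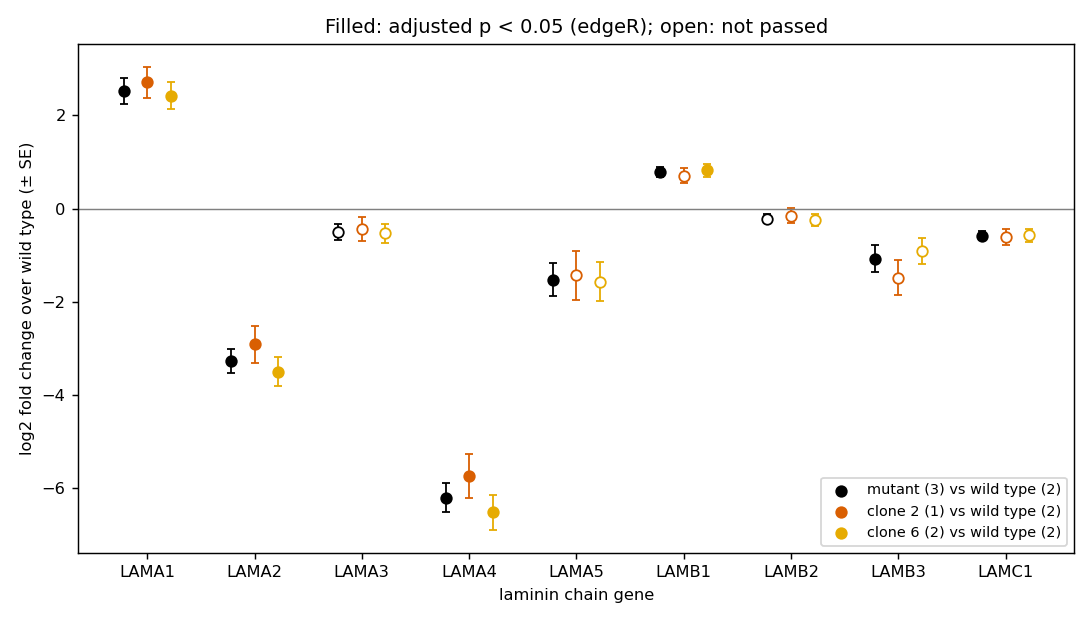
Log2 fold change over wild type with its SE for each chain, in all mutant libraries (black, 3 libraries), clone 2 (orange, 1 library) and clone 6 (yellow, 2 libraries), each against 2 wild-type libraries, with filled points past an adjusted p of 0.05. LAMA4 lies at -6.20 and LAMA1 at 2.52 for all mutant libraries, and the 3 points of each chain lie on the same side of 0.

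The difference between the clones was tested directly in clone 6 against clone 2. Of the 9 chains, 0 were called by edgeR's quasi-likelihood test, 0 had an unadjusted p below 0.05 and 0 were called by DESeq2, and over all genes 0 of 16471 were called (0%), with 114 at an unadjusted p below 0.05 and 2 called by DESeq2. The log2 differences ran from -0.77 for LAMA4 (SE 0.63) to 0.58 for LAMB3 (SE 0.36). Without clone 6 replicate 1, LAMB3 was called (0.97, adjusted p = 0.00745) along with 872 genes in all, but that fit sets 1 library against 1 and takes its spread from the wild-type pair alone.

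Among the other chains the log2 difference of clone 6 and clone 2 was -0.59 for LAMA2 (SE 0.45), -0.28 for LAMA1 (SE 0.32), -0.10 for LAMA3 (SE 0.26), -0.09 for LAMB2 (SE 0.16), -0.13 for LAMA5 (SE 0.50), 0.12 for LAMB1 (SE 0.17) and 0.03 for LAMC1 (SE 0.17). A p-value that missed the threshold here does not show that the clones were alike.

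Levels of different chains can be compared per length, here as CPM per kilobase of annotated exon. In mutant cells the order was LAMC1 (61.9), LAMB1 (51.7), LAMB2 (19.7), LAMB3 (17.0), LAMA5 (2.11), LAMA1 (0.850), LAMA3 (0.843), LAMA2 (0.0766) and LAMA4 (0.0437 CPM per kilobase). In wild-type cells it was LAMC1 (92.9), LAMB3 (35.9), LAMB1 (30.0), LAMB2 (22.9), LAMA5 (6.06), LAMA4 (3.32), LAMA3 (1.19), LAMA2 (0.755) and LAMA1 (0.147 CPM per kilobase). By exon length LAMA4 therefore held the last place in mutant cells and the sixth in wild-type cells, and LAMA1 the sixth and the last. LAMA4 has 11575 bases of exon and 5469 in its longest coding sequence, against 10358 and 9366 for LAMA2. The order of LAMA4 and LAMA2 may therefore depend on the length used. Within mutant cells, LAMB2 and LAMB3 (SD 1.25 and 6.93), LAMA1 and LAMA3 (SD 0.212 and 0.111), and LAMA2 and LAMA4 (SD 0.0239 and 0.0174 CPM per kilobase) were neighbours that differed by less than the sum of their SDs. In wild-type cells that held for LAMA5 and LAMA4 (SD 2.00 and 0.992 CPM per kilobase).

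The levels of the chains also differed in rank among all transcripts. LAMC1 per kilobase stood above 96.2 to 96.5% of tested genes in mutant libraries and 97.6 to 98.1% in wild-type libraries. LAMA4 stood above 0.896 to 1.56% of genes in mutant libraries, against 39.99 to 48.9% in wild-type libraries. LAMA1 stood above 18.3 to 22.8% of genes in mutant libraries, against 3.47 to 3.50% in wild-type libraries.

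The make-up of the α chains was described as the share of each in their summed level per kilobase, which does not depend on the scaling between libraries. LAMA4 made up 1.45% of it in clone 2, and in clone 6 0.542% (replicate 1) and 1.63% (replicate 2), against 29.4 and 28.3% in wild-type replicates 1 and 2. LAMA1 made up 22.7, 20.1 and 22.9% in these mutant libraries, against 1.11 and 1.54% in wild type. In every mutant library the share of LAMA1 lay above, and that of LAMA4 below, the shares in both wild-type libraries.

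LAMA5 was the main α chain in every library, at 52.5 ± 6.96% in mutant and 52.4 ± 3.14% in wild-type cells (SD, n = 3 and 2), although its own level was lower in mutant cells. LAMA3 took 22.3 ± 4.29% in mutant cells and 10.5 ± 1.39% in wild type. Its own mean level was not higher, at 0.843 CPM per kilobase in mutant and 1.19 in wild-type cells. LAMA2 took 2.12 ± 0.970% in mutant cells and 6.89 ± 2.22% in wild type. With the longest coding sequence in place of the exon length, the difference in share between mutant and wild-type cells was -37.8 percentage points for LAMA4 and 24.8 for LAMA1, in place of -27.6 and 20.6.

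Among β chains, LAMB1 took 59.5% of the summed level in clone 2, and in clone 6 59.2% (replicate 1) and 57.2% (replicate 2), against 33.2 and 34.5% in wild-type replicates 1 and 2. LAMB3 took 18.8 ± 5.18% in mutant cells and 40.4 ± 1.16% in wild type (SD, n = 3 and 2). LAMB1 was thus the leading β chain in the mutant libraries and LAMB3 in the wild-type libraries.

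The summed α level was 4.24 CPM per kilobase in clone 2, and in clone 6 it was 4.89 (replicate 1) and 2.64 (replicate 2), against 13.7 and 9.25 in wild-type replicates 1 and 2. The summed β level was 88.4 ± 10.9 CPM per kilobase in mutant and 88.7 ± 6.07 in wild-type cells (SD, n = 3 and 2). So the β sums differed by less than their spread, while the α sum of every mutant library was below both wild-type libraries.

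**Figure D3:**
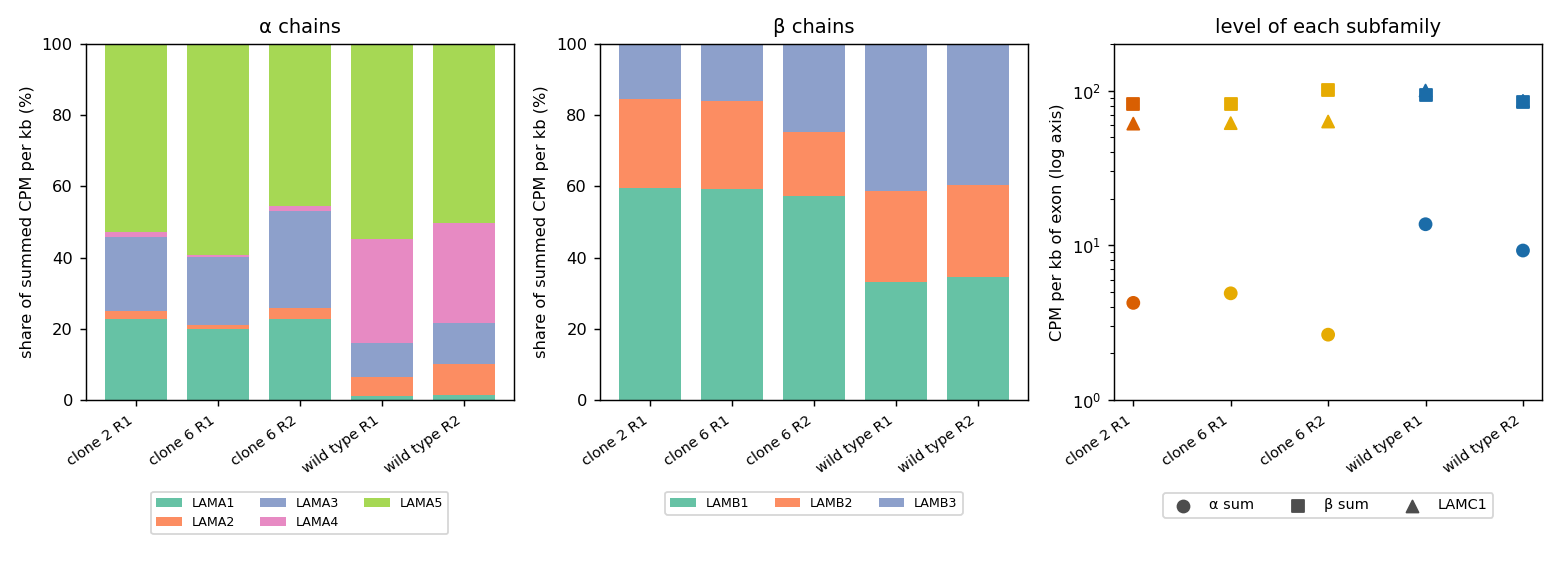
Share of each α chain (left) and β chain (middle) in the summed CPM per kilobase of its subfamily. The right panel gives the summed α level, the summed β level and the level of LAMC1 alone on a log axis. Each panel has 1 bar or 1 set of points per library. LAMA4 is 28.3 to 29.4% of the α level in wild type and at most 1.63% in mutant libraries, and LAMB1 is 57.2 to 59.5% of the β level in mutant libraries and at most 34.5% in wild type.

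Chains outside the 9 were also read from the files. LAMC3, a γ chain of nerve and brain, stood at 29.6 ± 0.26 CPM in mutant and 20.5 ± 1.13 CPM in wild-type cells (SD, n = 3 and 2; log2 fold change 0.53, adjusted p = 0.019). LAMB4 had 2 to 4 reads in mutant and 1 to 2 reads in wild-type libraries and was not tested.

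Neighbouring transcripts bear on the counts, since no source used here gives the strand setting. The annotated exons of LAMA5 share 118 bases with those of LAMA5-AS1 on the opposite strand, and 244 bases with those of ADRM1. LAMA5-AS1 had 1 to 2 reads in mutant and 3 to 13 in wild-type libraries. ADRM1 had 1077 to 1266 reads in mutant and 1105 to 1369 in wild-type libraries. LAMB1 shares 70 bases with DLD, which had 970 to 1480 reads in mutant and 1399 to 1767 in wild-type libraries. It also shares 221 bases with an antisense RNA that had 8 to 16 reads in mutant and 11 to 12 in wild-type libraries. LAMA1 shares 1641 bases, the longest stretch of any chain, with an antisense RNA that had 0 reads in every library. Around LAMA4, an antisense RNA that shares 206 bases had 0 reads in mutant and 2 reads in each wild-type library. Without strand, reads in these shared bases cannot be told apart.

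Genes around the laminins were described by 4 lists: other basement membrane proteins, laminin receptors, enzymes that glycosylate dystroglycan, and netrins. The lists, too, were chosen with earlier results of these data known. Of 24 basement membrane genes, 19 were tested, 10 fell and 0 rose, where 18.4% of all genes were called, and their median log2 fold change was -0.55. COL4A5, a collagen IV chain, had 9.16, 8.90 and 7.23 CPM in clone 2 and clone 6 replicates 1 and 2, against 38.2 and 29.4 CPM in wild type (log2 fold change -2.00, SE 0.17, adjusted p = 0.00116). The anchoring fibril collagen COL7A1 averaged 245 CPM in mutant and 751 CPM in wild-type cells and fell by 1.62 (SE 0.17, adjusted p = 0.00257). NID1, the nidogen that ties the laminin γ1 chain to collagen IV, fell by 1.03 (adjusted p = 0.0121), and COL4A2 by 0.99 (0.0225). The other nidogen of the list, NID2, averaged 66.2 CPM in mutant and 64.0 CPM in wild-type cells (log2 fold change 0.05, SE 0.099, adjusted p = 0.778). The proteoglycan HSPG2 averaged 27.4 CPM in mutant and 40.2 CPM in wild-type cells and did not pass either (log2 fold change -0.56, SE 0.44, adjusted p = 0.423). NID1 and COL4A2 lost their calls without either wild-type replicate, and the list count was then lower, as was the count over all genes. Without clone 2 the list count was 5, where 1481 genes were called over all, against 2857 with every library.

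The 15 laminin receptor genes were all tested and split, with 4 higher, 4 lower and 7 that did not pass. Over all genes tested, 8.27% were called higher and 10.2% lower. The median log2 fold change of the receptors was 0.15. ITGB4, the integrin β subunit of hemidesmosomes, averaged 100.3 CPM in mutant and 36.1 CPM in wild-type cells (log2 fold change 1.47, SE 0.22, adjusted p = 0.00758). The heparan sulfate proteoglycan SDC2 rose by 1.70 (adjusted p = 0.00778) and its relative SDC4 fell by 1.09 (adjusted p = 0.00189). MCAM, a surface receptor that binds LAMA4-containing laminin, had 23.6, 23.1 and 13.8 CPM in clone 2 and clone 6 replicates 1 and 2, against 57.9 and 54.7 CPM in wild type (log2 fold change -1.48, SE 0.22, adjusted p = 0.00742). ITGA6, the integrin α subunit that pairs with ITGB4, averaged 63.0 CPM in mutant and 117 CPM in wild-type cells (log2 fold change -0.90, adjusted p = 0.0102), and DAG1, which encodes dystroglycan, averaged 154 CPM in mutant and 125 CPM in wild-type cells and did not pass (adjusted p = 0.207). The count of 8 was lower with either wild-type library left out, as was the count over all genes. Without clone 2 it was 5, where 1481 genes were called over all, against 2857 with every library. SDC2 and MCAM lost their calls without either wild-type replicate (adjusted p = 0.0974 and 0.0801 without replicate 1, and 0.0664 and 0.0626 without replicate 2), and ITGB4 without wild-type replicate 2 (0.0761).

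Of 18 genes of dystroglycan glycosylation, 16 were tested and 0 were called by edgeR, where 18.4% of all genes were called. At an unadjusted p below 0.05 there were 5, and DESeq2 called 0. Their median log2 fold change was 0.06, and their summed level was 569 to 584 CPM in mutant and 555 to 575 CPM in wild-type libraries. The count was 7 without clone 6 replicate 2, where 5919 genes were called over all, against 2857 with every library. Of 6 netrins, proteins with laminin-type domains, 3 were tested. NTN1 fell, with 6.68 CPM in mutant and 16.1 CPM in wild-type cells (log2 fold change -1.27, SE 0.17, adjusted p = 0.00526). It lost its call without wild-type replicate 1. NTN3 and NTN4 had log2 fold changes of 1.05 and 0.45 and did not pass (adjusted p = 0.196 and 0.447).

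**Figure D4:**
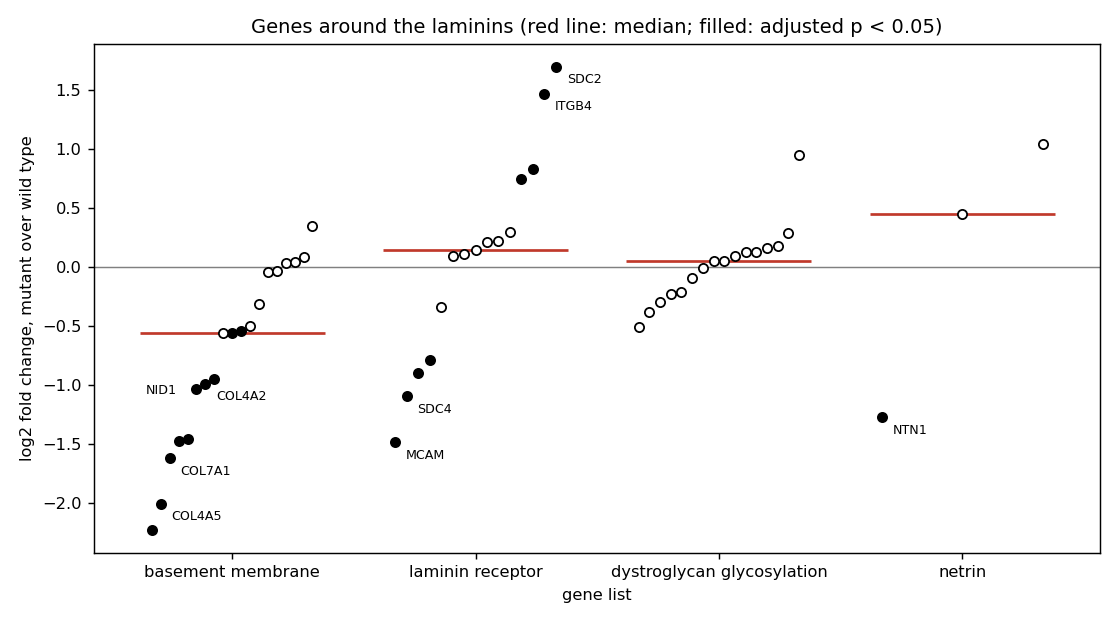
Log2 fold change of mutant over wild-type cells for each tested gene of the 4 lists, sorted within a list, with filled points past an adjusted p of 0.05 and red lines at the medians. All 10 filled points of the basement membrane list lie below 0, the laminin receptors have 4 on each side, and none of the 16 dystroglycan glycosylation genes is filled.

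Markers of cells that make these chains were counted in the same way, and their part in the results was not tested. These counts stand beside the 18.4% of all genes called. Of 8 endothelial markers with counts, 5 were tested, 2 fell and 1 rose, and their summed level was 11.1 to 16.6 CPM in mutant and 37.7 to 42.5 CPM in wild-type libraries. Most of that sum was TIE1, at 1.21 CPM in mutant and 19.1 CPM in wild-type cells, and TEK, at 9.26 and 17.8 CPM. These were the 2 that fell, while ERG rose (log2 fold change 2.56, adjusted p = 0.0106). ERG had 27 to 40 reads in mutant and 4 to 11 reads in wild-type libraries. The defining endothelial gene CDH5 had 0 to 1 reads in mutant and 3 to 6 reads in wild-type libraries, and KDR and CLDN5 had at most 10 in any. Of 9 pericyte and fibroblast markers, 6 were tested, 3 fell and 0 rose, and the sum was 662 to 1851 CPM in mutant and 1964 to 2173 CPM in wild-type libraries, with DCN at 0 to 1 reads in mutant and 0 reads in wild-type libraries. COL1A1 alone made up most of that sum, with 510 to 1649 CPM in mutant and 1694 to 1896 CPM in wild-type libraries, and was not called (adjusted p = 0.471), and the low end was clone 6 replicate 2. The genes that fell were the pericyte channel genes KCNJ8, with 6 to 13 reads in mutant and 502 to 515 reads in wild-type libraries, and ABCC9, with 1 to 2 reads in mutant and 204 to 264 reads in wild-type libraries, and the receptor gene PDGFRB (log2 fold change -1.25). CSPG4 had a log2 fold change of -0.19 and did not pass, and PDGFRA, with 24 to 82 reads in mutant and 18 to 21 reads in wild-type libraries, had 2.05 (adjusted p = 0.0578).

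Epithelial markers, beside LAMA3 and LAMB3, gave 0 calls among 3 tested of 8, at 99.7 to 110.5 CPM in mutant and 102 to 105 CPM in wild-type libraries, nearly all of it KRT18 (96.1 to 105 CPM in mutant and 97.4 to 99.4 CPM in wild-type libraries), with CDH1 at 1 to 3 reads in mutant and 1 to 4 reads in wild-type libraries. Schwann cell markers, beside LAMA2, had 1 rise and 1 fall among 4 tested of 5, at 15.1 to 16.3 CPM in mutant and 8.98 to 9.34 CPM in wild-type libraries. Of the astrocyte markers 3 were tested and GJA1 was higher (log2 fold change 1.26, adjusted p = 0.00236).

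Likeness of pattern over the 5 libraries was ranked among the 11103 tested genes with a mean log2 CPM of at least 2. LAMA4 itself, at 1.65, was below that limit, and genes below it, such as KCNJ8 and ABCC9, were not ranked. Among the ranked genes, those most like LAMA4 were NRP2, C3 and SLIT2. Their root-mean-square differences were 0.48, 0.78 and 0.80 in centred log2 CPM. NRP2, a semaphorin and VEGF co-receptor, averaged 2.97 CPM in mutant and 255 CPM in wild-type cells. LAMA2 was the chain nearest to LAMA4, at 1.40, with 16 of the ranked genes closer. For LAMA1 the nearest genes were NPR3, SLC1A1 and DAAM2, at 0.05, 0.06 and 0.10. NPR3, a natriuretic peptide receptor, averaged 43.9 CPM in mutant and 8.05 CPM in wild-type cells. These are likenesses over 5 libraries in 2 genotypes and carry no test.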

How the data were processed

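The authors deposited 1 file per library, with the raw count of reads assigned to each Ensembl gene. The submitters' processing notes name Trimmomatic, STAR, HTSeq and the build hg19 (GRCh37), without versions or roles, and no source used here gives the annotation release or the strand setting. Each file listed 63677 genes, of which 5772 had an empty value and were left out, leaving 57905.

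Counts were tested in R 4.3.3 with edgeR 4.0.16 (TMM scaling, filterByExpr, quasi-likelihood F test), for genotype (15500 genes, 3 residual degrees of freedom) and for 3 groups (16471 genes, 2). The SE is the absolute log2 fold change over the root of F. CPM used TMM-scaled library sizes, on which 3 reads were 0.139 to 0.230 CPM, and log2 CPM a prior count of 2. Kilobases are unions of GENCODE 29 exons, matched by identifier to 15068 tested genes. Promoters came from RefSeq.

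Members and lists were chosen with earlier results of these data known. Named genes were the 9 chains, other chain rows (1 is not reported here), up to 4 called genes per list with a mean log2 CPM of at least 2, and the 3 genes most like LAMA4 and the chain with the largest rise. NID2, HSPG2, ITGA6, DAG1, SPARC and the marker genes were named after their values were seen. Alternatives were other scalings, filters, DESeq2 1.42.0, each library left out, clone 2 summed with clone 6 replicate 1, a ribosomal RNA covariate, a replicate block and coding length, the last added after the data were seen.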

Additional observations from a re-analysis of the deposited data

How the results depend on the processing

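The direction of all 9 log2 fold changes between mutant and wild-type cells was the same under all 13 alternatives run, and LAMA1, LAMA2 and LAMA4 kept their calls under each. With 1 library left out the number of chains called was 3 to 8, for clone 6 3 to 8, for clone 2 2 to 7, and for clone 6 against clone 2 0 to 1. Over the same fits the log2 fold change was -0.64 to -0.34 for LAMA3, -1.83 to -1.14 for LAMA5, 0.69 to 0.83 for LAMB1, -1.48 to -0.91 for LAMB3 and -0.69 to -0.47 for LAMC1, the basement membrane count was 2 to 12, the receptor count 1 to 11, the glycosylation count 0 to 7 and the netrin count 0 to 2.

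With clone 2 and clone 6 replicate 1 summed, LAMA5 (-1.70, adjusted p = 0.0522) and LAMB3 (-0.93, adjusted p = 0.113) lost their calls and the basement membrane count was 6. With the ribosomal RNA covariate LAMB3 (-1.15, adjusted p = 0.0606) lost its call. With no filter on low counts LAMA3 passed (-0.52, adjusted p = 0.039), 7 chains were called in clone 6 and 7 in clone 2, and the netrin count was 3. The glycosylation count was 1 with DESeq2 size factors, 1 with upper-quartile scaling, 2 with no filter and 2 with at least 1 CPM in 2 libraries. The cause was not tested.

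The labels do not say whether libraries of the same replicate number shared a culture or a run. The differences between replicates 1 and 2 in wild type and in clone 6 correlated at 0.253 over 11103 genes. Whether same-numbered libraries shared a factor was not tested. With the replicate number as a block, 9 chains were called in mutant cells, 7 in clone 6 and 6 in clone 2, with LAMA3 at -0.55 (adjusted p = 0.0155) and LAMB2 at -0.24 (adjusted p = 0.0449), the glycosylation count was 3, and the genes called over all were 4436, against 2857 without the block. In clone 6 against clone 2 the sign turned under the block for LAMA3 (0.061) and LAMA5 (0.23), none called. With clone 6 replicate 2 or replicate 1 left out, that log2 difference was 0.022 or -0.67 for LAMA1, 0.077 or -0.29 for LAMA3, 0.37 or -0.90 for LAMA5 and -0.017 or 0.24 for LAMB1, none called, against -0.28, -0.10, -0.13 and 0.12 with all libraries. The count over all genes ran from 500 without wild-type replicate 1 to 5919 without clone 6 replicate 2. Other scalings moved the median of all genes by at most 0.02. With coding length the LAMA4 share difference was -37.8 and the LAMA1 difference 24.8 percentage points. A length from a protein table was not run. LAMA4 and LAMA2 are limited by depth in mutant cells, at 4 to 16 reads per library.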

Other observations

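The replicates of clone 6 differed from each other in several chains, with 1 library on each side and no test. The log2 ratio of replicate 2 to replicate 1 was 0.93 for LAMB3 in clone 6, against -0.20 in wild type. For LAMA5 it was -1.27 in clone 6 and -0.69 in wild type, and for LAMA1 -0.69 and -0.09. LAMC1 had a ratio of 0.03 in clone 6 and -0.22 in wild type, and LAMB2 -0.15 and -0.12. Among other genes of the lists, HSPG2 had 11.5 CPM in clone 6 replicate 2 and 37.8 CPM in replicate 1, and COL1A1 had 510 and 1649 CPM, while SPARC had 443 and 625 CPM. Between clone 6 replicate 1 and clone 2 the log2 ratio was -0.96 for LAMA4 and -0.81 for LAMA2, both on at most 16 reads, 0.37 for LAMA5, 0.08 for LAMA3, 0.03 for LAMB3 and 0.01 for LAMC1.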
